A study of Caenorhabditis elegans with 82 samples.

Results

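str-7 (WBGene00006075) and srh-237 (WBGene00005444) encode chemoreceptors of *C. elegans*, and their levels were followed in 82 RNA-seq libraries of whole worms. Both genes were chosen for their fall on a mixture of bacterial isolates, so they are 2 of the 46748 genes of the count table, and of the 18372 genes that could be tested across stages, and their difference between the mixture and OP50 is given as a description with no test. The worms were of the wild-type strain N2, kept at 20°C on agar plates, and sampled as L2, L3 and L4 larvae (6, 24 and 48 h) and as adults on day 1 (72 h), day 3 and day 7 (Ad1, Ad3 and Ad7). They were fed 1 of 4 bacterial diets. These were MYb71, an *Ochrobactrum* isolate from the natural microbiota of the worm (24 libraries), a second *Ochrobactrum* isolate named MYb65 in the sample labels (20 libraries) and taken, as an assumption, to be the isolate that the paper calls MYb237, a mixture of both isolates called Mix (18 libraries), and the standard laboratory food *E. coli* OP50 (20 libraries). The study describes replicates as independent runs of the exposure and worms as kept on their bacterium for some generations beforehand. Each library is thus a pool of synchronized hermaphrodites, and the measured RNA is that of the entire worm and not of single neurons.

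Chemoreceptors of nematodes are seven-transmembrane proteins that couple to G proteins. Most are thought to sit in the cilia of amphid and other sensory neurons, where a bound odorant or soluble chemical acts through G protein alpha subunits on cyclic GMP or TRPV channels. The worm genome holds very large families of them, among them the str family, named for seven-transmembrane receptors, and the srh family, named for serpentine receptors of class h. Bacteria are a main source of the chemicals that worms sense, and single chemoreceptor genes are known to change with food, temperature and pheromone. No ligand of str-7 or srh-237 is named in the labels or the paper's methods.

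Both genes lie on chromosome V of WBcel235 and are annotated as protein-coding. str-7 spans 16097824 to 16099541 on the minus strand, with 4 exons of 1212 bases in all. srh-237 spans 17090379 to 17091714 on the plus strand, also with 4 exons, of 1032 bases in all. In the annotation used for these positions, no other gene overlaps their exons. The reads were counted on a different annotation release. Whether reads that run past the annotated end of a nearby gene enter their counts was not tested. The sources used here do not say how reads matching several family members were treated.

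Total counts ranged from 10513060 to 74552875 per library (median 21133979). The deepest libraries were on OP50, with up to 74552875 counts, against up to 26623583 on MYb71, 30304949 on MYb65 and 29600003 on Mix. Of the 82 libraries, 79 had the profile of their own stage as the closest. The library labelled OP50 L2 replicate 3 was closest to Ad3 (r = 0.990 across genes, against 0.781 with L2), and the library labelled OP50 L3 replicate 3 to Ad7 (r = 0.987, against 0.737 with L3), so results below come from the other 80 libraries unless stated, 18 of them on OP50. OP50 Ad1 replicate 2 was about as close to Ad3 (r = 0.980) as to its own stage (r = 0.979). A pair of MYb65 libraries carry different stages in their title and time point, and were placed by the time point as replicate 3 of L3 and of L4. In OP50 replicate 3 at L4, Ad1 and Ad3, srh-237 stood far below the other OP50 libraries, as described with its values.

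On OP50 both genes were expressed at a low but clear level, and on each isolate and on Mix they were close to the limit of counting. Over all stages, str-7 fell by 4.87 ± 0.29 (SE) on the log2 scale on MYb71 and fell by 4.85 ± 0.31 on MYb65, against OP50. Over the same libraries srh-237 fell by 4.01 ± 0.32 on MYb71 and fell by 3.91 ± 0.34 on MYb65. Each of these 4 changes passed the test (adjusted p = 1.15e-23 and 9.73e-22 for str-7, 3.92e-17 and 2.97e-15 for srh-237). Of all genes tested across stages, 2.93% were called as lower and 1.76% as higher on MYb71, and 1.71% as lower and 1.8% as higher on MYb65. The OP50 libraries also served in choosing the 2 genes, so these tests are not independent of the choice. The genes also passed the filter on low counts (minimum 10 reads) mainly through those libraries, since isolate libraries held at most 7 reads of str-7 and at most 14 of srh-237, so a call in a test against OP50 was largely fixed by the filter. In whole worms, fewer cells that express a gene and less RNA per cell cannot be told apart.

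Levels are given as CPM, the count scaled to the TMM-normalized size of the library. The median level of str-7 was 0.0872 CPM over the MYb71 libraries, 0.0822 CPM over the MYb65 libraries and 0.132 CPM over the Mix libraries, against 2.85 CPM over the OP50 libraries. That of srh-237 was 0.302 CPM on MYb71, 0.318 CPM on MYb65 and 0.267 CPM on Mix, against 5.0 CPM on OP50. In counts, str-7 had 0 to 4 reads per MYb71 library, 0 to 7 per MYb65 library and 0 to 7 per Mix library, against 6 to 568 per OP50 library. Its 24 MYb71 libraries held 47 reads together, while the 18 OP50 libraries held 1874. Unlike CPM, these counts are not scaled for depth, and the deepest libraries were on OP50. srh-237 had 0 to 14 reads per MYb71 library, 2 to 11 per MYb65 library and 0 to 20 per Mix library, against 2 to 728 per OP50 library. A library with 0 reads of str-7 allows a level of up to 0.119 to 0.229 CPM (3 reads, by the depth of the 8 libraries concerned), so the order of levels among the isolates is not resolved.

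**Figure D1:**
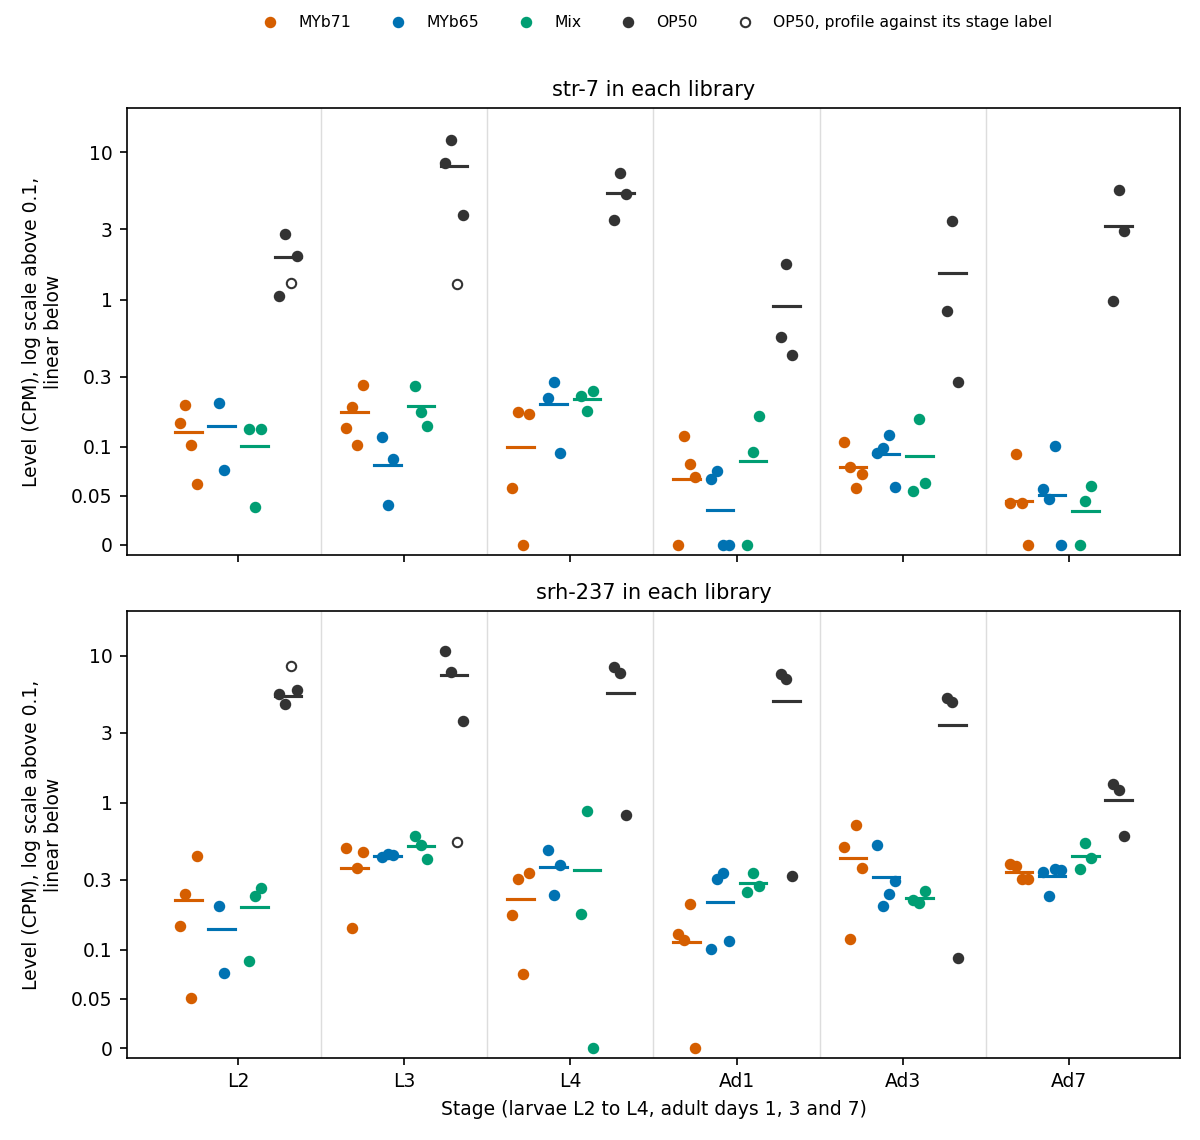
Level of str-7 (upper panel) and srh-237 (lower panel) in every library, in CPM on an axis that is logarithmic above 0.1 and linear below, with stages from left to right and, within a stage, MYb71, MYb65, Mix and OP50. Each point is 1 library and each short line the mean of a group, and open points are the 2 OP50 libraries whose profile goes against their stage label, which are not in the means. All MYb71, MYb65 and Mix points of str-7 lie at or below 0.277 CPM and all OP50 points used at or above 0.275 CPM, and within each stage the groups do not overlap, while for srh-237 OP50 replicate 3 lies among the other points at L4 and Ad1 and below all of them at Ad3.

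In L2 larvae str-7 had 0.144, 0.192, 0.103 and 0.0623 CPM on MYb71 and 0.199 and 0.0765 CPM on MYb65. The Mix libraries of that stage had 0.133, 0.0384 and 0.132 CPM, against 1.06, 2.78 and 1.99 CPM on OP50. Every OP50 library was thus above every other library of the stage. At L3, str-7 had 0.133, 0.188, 0.102 and 0.263 CPM on MYb71, 0.116, 0.0408 and 0.0880 CPM on MYb65 and 0.258, 0.173 and 0.138 CPM on Mix, against 8.43, 12.1 and 3.76 CPM on OP50. This was the stage with the highest OP50 levels of str-7 and with 5 reads in the MYb65 libraries together. The left-out library labelled OP50 L3 replicate 3 had 1.27 CPM, also above the isolates. At L4, the values were 0.0578, 0.174, 0 and 0.167 CPM on MYb71, 0.216, 0.277 and 0.0941 CPM on MYb65 and 0.220, 0.175 and 0.238 CPM on Mix, against 3.50, 7.31 and 5.20 CPM on OP50. The groups on the isolates overlapped each other and none reached OP50.

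In adults the OP50 libraries of str-7 differed more among themselves than in larvae, by 4.17, 12.4 and 5.67 times between the highest and the lowest at Ad1, Ad3 and Ad7, against 2.62, 3.23 and 2.09 times at L2, L3 and L4. At Ad1, str-7 had 0, 0.118, 0.0821 and 0.0694 CPM on MYb71, 0.0673, 0.0757, 0 and 0 CPM on MYb65 and 0, 0.0948 and 0.162 CPM on Mix, against 0.554, 1.76 and 0.422 CPM on OP50. This is the stage with the lowest OP50 mean. The 4 MYb65 libraries held 4 reads, or 0.0119 to 0.112 CPM (exact 95% Poisson interval, counting error only), while the 3 OP50 libraries held 80, or 0.623 to 0.977 CPM. At Ad3, str-7 had 0.107, 0.0796, 0.0585 and 0.0718 CPM on MYb71, 0.0936, 0.0990, 0.120 and 0.0592 CPM on MYb65 and 0.0546, 0.155 and 0.0629 CPM on Mix, against 0.841, 3.41 and 0.275 CPM on OP50. The lowest OP50 library of this stage was still above the isolates. At Ad7, the values were 0.0425, 0.0924, 0.0430 and 0 CPM on MYb71, 0.0566, 0.0466, 0.101 and 0 CPM on MYb65 and 0, 0.0447 and 0.0600 CPM on Mix, against 0.979, 5.55 and 2.92 CPM on OP50. Thus at each of the 6 stages every MYb71 and MYb65 library lay below every OP50 library used, a pattern that 0.0327% of the 18372 genes share. By single stage that order held for 4.4% of all genes at L2, 5.18% at L3 and 0.947% at L4. It held for 0.43% at Ad1, 0.637% at Ad3 and 1.39% at Ad7. The OP50 libraries also served in choosing str-7, so the order is not independent of the choice.

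The tests by stage gave the size of the change at L2, L3, L4 and Ad7, where str-7 passed the filter through its OP50 libraries. Those libraries also served in choosing the gene. On MYb71 it fell by 3.79 ± 0.50 at L2 (adjusted p = 0.00229), fell by 5.42 ± 0.44 at L3 (8.18e-05), fell by 5.62 ± 0.63 at L4 (0.00284) and fell by 5.84 ± 0.68 at Ad7 (6.98e-04), on the log2 scale with SE. The shares of all genes called as lower on MYb71 at these stages were 0.918%, 0.612%, 0.114% and 0.427%. On MYb65 it fell by 3.76 ± 0.61 at L2 (adjusted p = 0.0159), fell by 6.51 ± 0.54 at L3 (3.24e-04), fell by 4.68 ± 0.67 at L4 (0.0243) and fell by 5.69 ± 0.68 at Ad7 (0.00111). The corresponding shares of all genes were 0.409%, 0.737%, 0.0442% and 0.37%. The calls on MYb71 held without any 1 library. On MYb65 the call at L2 was lost without MYb65 replicate 1 (adjusted p = 0.107), MYb65 replicate 2 (0.285) or OP50 replicate 2 (0.0550), and that at L4 without MYb65 replicates 1 (0.193), 2 (0.101) or 3 (0.150) or OP50 replicate 2 (0.0925). At Ad1 and Ad3 str-7 was removed by the filter of the single stage. A model of all 24 groups of stage and bacterium, chosen after the data were seen, tests it there as well and gave log2 fold changes at Ad1 of -3.70 ± 0.72 on MYb71 (adjusted p = 0.00105) and -4.25 ± 0.74 on MYb65 (2.91e-04). At Ad3 they were -4.11 ± 0.68 on MYb71 (2.39e-04) and -3.94 ± 0.67 on MYb65 (3.43e-04). The shares of all genes called as lower in this model were 0.604% on MYb71 and 0.261% on MYb65 at Ad1, and 0.114% on MYb71 and 0.0925% on MYb65 at Ad3.

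srh-237 showed a similar drop in larvae. At L2 it had 0.144, 0.241, 0.0515 and 0.436 CPM on MYb71, 0.199 and 0.0765 CPM on MYb65 (5 and 2 reads, as for str-7) and 0.0886, 0.231 and 0.263 CPM on Mix, against 5.49, 4.66 and 5.85 CPM on OP50. The 3 OP50 libraries agreed within 1.25 times, the least spread of either gene on OP50. At L3 it had 0.489, 0.141, 0.358 and 0.460 CPM on MYb71, 0.425, 0.449 and 0.440 CPM on MYb65 and 0.590, 0.520 and 0.415 CPM on Mix, against 10.8, 7.73 and 3.58 CPM on OP50. Both stages separate OP50 from all other libraries, but the left-out libraries behaved differently, with 8.52 CPM in that labelled OP50 L2 replicate 3 and 0.537 CPM in that labelled OP50 L3 replicate 3. At L4 the values were 0.173, 0.304, 0.0750 and 0.333 CPM on MYb71, 0.475, 0.238 and 0.376 CPM on MYb65 and 0.176, 0.875 and 0 CPM on Mix, against 8.35, 7.61 and 0.822 CPM on OP50. Here OP50 replicate 3 came near the isolates and below Mix replicate 2.

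The same split of the OP50 libraries was seen in adults. At Ad1, srh-237 had 0.127, 0.118, 0.205 and 0 CPM on MYb71, 0.101, 0.303, 0.333 and 0.115 CPM on MYb65 and 0.249, 0.332 and 0.270 CPM on Mix, against 7.52, 6.90 and 0.316 CPM on OP50. At Ad3 it had 0.499, 0.119, 0.702 and 0.359 CPM on MYb71, 0.515, 0.198, 0.240 and 0.296 CPM on MYb65 and 0.218, 0.207 and 0.252 CPM on Mix, against 5.15, 4.84 and 0.0915 CPM on OP50. In both stages OP50 replicate 3 lay within or below the range of the isolates, and the 2 other OP50 libraries lay far above it. At Ad7, srh-237 had 0.382, 0.370, 0.301 and 0.305 CPM on MYb71, 0.340, 0.233, 0.352 and 0.347 CPM on MYb65 and 0.357, 0.536 and 0.420 CPM on Mix, against 1.33, 1.22 and 0.596 CPM on OP50. The groups were again apart, but by the smallest distance of any stage, with the MYb71 mean at 0.324 times and the MYb65 mean at 0.303 times the OP50 mean. Every MYb71 and MYb65 library lay below every OP50 library at L2, L3, L4 and Ad7, which holds for 4.4%, 5.18%, 0.947% and 1.39% of all genes in that order. The OP50 libraries also served in choosing srh-237, so this result is not independent of the choice.

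In the tests by stage srh-237 on MYb71 fell by 4.57 ± 0.45 at L2 (adjusted p = 2.40e-04), fell by 4.20 ± 0.39 at L3 (2.28e-04) and fell by 1.63 ± 0.32 at Ad7 (0.0285). At these stages the gene passed the filter mainly through its OP50 libraries, which also served in choosing it. The calls are thus not independent of the choice. On MYb65 it fell by 5.23 ± 0.61 at L2 (0.00156), fell by 4.0 ± 0.43 at L3 (9.72e-04) and fell by 1.74 ± 0.33 at Ad7 (0.0220). The call on MYb65 at L2 was lost without MYb65 replicate 2 (adjusted p = 0.0605). With the left-out library labelled OP50 L3 replicate 3 added, the log2 fold change on MYb65 at L3 was -3.63 and did not pass (adjusted p = 0.101). The calls at Ad7 were the least firm. On MYb71 the call was lost without any 1 of the 4 MYb71 libraries or without OP50 replicate 1 or 2 (adjusted p 0.0593 to 0.136), and on MYb65 without any 1 of the 4 MYb65 libraries or without OP50 replicate 1 or 2 (0.0512 to 0.132). With the replicate number as a block, which pairs MYb65 and OP50 at Ad7, the MYb65 change was -1.70 with an adjusted p of 0.0823.

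At L4 and Ad3 the changes of srh-237 did not pass with all OP50 libraries, where 0.114% (MYb71) and 0.0442% (MYb65) of all genes were called as lower at L4 and 0.105% and 0.0844% at Ad3. The log2 fold change at L4 was -4.65 ± 0.96 on MYb71 (adjusted p = 0.147) and -4.01 ± 1.03 on MYb65 (0.559), and at Ad3 -2.99 ± 0.81 (0.219) and -3.38 ± 0.84 (0.137). Without OP50 replicate 3, srh-237 fell by 5.16 on MYb71 at L4 (adjusted p = 0.0312), fell by 3.55 on MYb71 at Ad3 (0.00198) and fell by 3.93 on MYb65 at Ad3 (9.07e-04), while the change of -4.51 on MYb65 at L4 still did not pass (0.148). Without this library 0.235% (MYb71) and 0.136% (MYb65) of all genes were called as lower at L4, and 0.469% and 0.483% at Ad3. At Ad1 the filter of the stage removed srh-237. Without OP50 replicate 3, which had 6 reads, the gene passed the filter there through the other OP50 libraries (461 and 149 reads, against 0 to 8 in the isolate libraries), and it fell by 5.94 ± 0.65 on MYb71 (adjusted p = 8.83e-04) and fell by 5.07 ± 0.62 on MYb65 (0.00226), where 0.594% and 0.257% of all genes were called as lower. In the model of 24 groups, which keeps OP50 replicate 3, the log2 fold changes at Ad1 were -5.28 ± 0.79 on MYb71 (1.50e-05) and -4.52 ± 0.74 on MYb65 (1.16e-04). The same model called srh-237 at L4 (adjusted p = 4.97e-05 on MYb71 and 0.00309 on MYb65) and at Ad3 (0.0316 and 0.00939), but not at Ad7 (1.00 on each isolate). It called 0.691% (MYb71) and 0.435% (MYb65) of all genes as lower at L4. All of these tests use OP50 libraries that also served in choosing srh-237.

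**Figure D2:**
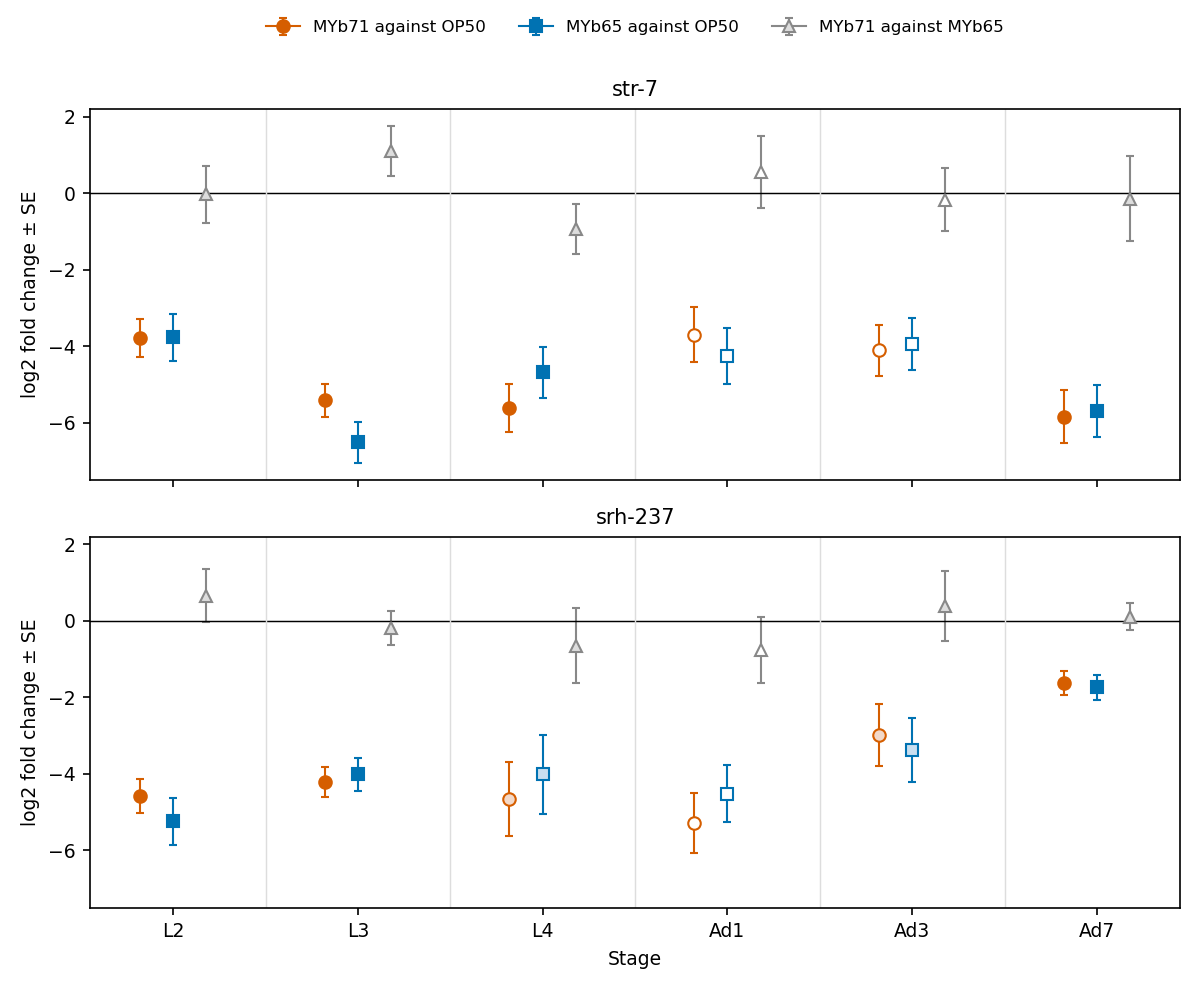
Log2 fold change ± SE of str-7 (upper panel) and srh-237 (lower panel) at each stage, for MYb71 against OP50 (circles), MYb65 against OP50 (squares) and MYb71 against MYb65 (triangles). Full colour marks an adjusted p under 0.05 in the model of that stage and pale colour a change that did not pass, while white symbols come from the model of 24 groups, at stages where the filter of the single stage had removed the gene. The str-7 changes against OP50 lie between -3.70 and -6.51 at all stages, those of srh-237 move to -1.63 and -1.74 at Ad7, and the triangles lie between -0.93 and 1.09.

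The 2 isolates were compared directly in libraries that had no part in choosing the genes. Over all stages the log2 fold change of MYb71 against MYb65 was -0.02 ± 0.40 for str-7 and -0.09 ± 0.34 for srh-237, and neither passed (adjusted p = 1 for both), while 0.098% of all genes were called as lower and 0.0381% as higher on MYb71. This does not show that the levels are equal, since the isolate libraries hold few reads of either gene. By stage the values of str-7 were -0.03 ± 0.74 at L2, 1.09 ± 0.65 at L3, -0.93 ± 0.66 at L4 and -0.14 ± 1.11 at Ad7. Those of srh-237 were 0.66 ± 0.70 at L2, -0.20 ± 0.45 at L3, -0.65 ± 0.97 at L4, 0.38 ± 0.91 at Ad3 and 0.11 ± 0.35 at Ad7. None of these passed the test (adjusted p 0.825 to 1.00).

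On Mix, for which the genes were picked, the values are a description. Across stages the log2 fold change of Mix against OP50 was -4.68 for str-7 and -3.74 for srh-237. The mixture lay near its components, with a log2 fold change of 0.18 ± 0.32 for str-7 and 0.22 ± 0.31 for srh-237 against the mean of MYb71 and MYb65. The Mix library with the highest srh-237 level was L4 replicate 2, at 0.875 CPM (20 reads), and another library of the same group, L4 replicate 3, had 0 reads.

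The order of stages differed between both genes on OP50. str-7 was highest at L3 (8.10 ± 4.19 CPM, mean ± SD, n = 3), followed by L4 (5.34 ± 1.91), Ad7 (3.15 ± 2.29), L2 (1.94 ± 0.860), Ad3 (1.51 ± 1.67) and Ad1 (0.912 ± 0.736). Of the steps between successive stages on OP50, str-7 rose by 2.07 ± 0.58 on the log2 scale at L3 against L2 (adjusted p = 0.00530) and fell by 2.56 ± 0.60 at Ad1 against L4 (4.24e-04). Many genes moved at these steps, 14.5% of all tested rising at the first and 23.9% falling at the second. The rise was lost without replicate 1 (adjusted p = 0.0707) or replicate 2 (0.0519), and the fall held. The other steps of str-7 on OP50 did not pass, with -0.60 ± 0.56 at L4 against L3, 0.74 ± 0.59 at Ad3 against Ad1 and 1.06 ± 0.57 at Ad7 against Ad3. On the mean of both isolates str-7 had 5 reads on MYb71 and 4 on MYb65 at Ad1, against 8 on MYb71 and 13 on MYb65 at L4, and it was in the model through its OP50 libraries. There str-7 fell by 1.44 ± 0.60 at Ad1 against L4 (adjusted p = 0.0408, with 26% of all genes falling), a call that rests on these few reads and was lost without replicate 1 (0.0888), replicate 2 (0.103) or replicate 4 (0.156).

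For srh-237 on OP50 the means were 7.37 ± 3.62 CPM at L3, 5.59 ± 4.15 at L4, 5.33 ± 0.609 at L2, 4.91 ± 3.99 at Ad1, 3.36 ± 2.84 at Ad3 and 1.05 ± 0.396 at Ad7. No step between successive stages passed for srh-237 on OP50, the largest being -1.67 ± 0.71 at Ad7 against Ad3 (adjusted p = 0.499). On the isolates no step of srh-237 passed with all replicates, while without replicate 3 its change of -1.31 at Ad1 against L4 (adjusted p = 0.0187) and of 1.39 at Ad3 against Ad1 (0.0159) did. Both rest on few reads, with 0 to 8 per isolate library at Ad1, and srh-237 was in the model mainly through its OP50 libraries. With all replicates, 26% of all genes fell at the first of these steps on the isolates, and 2900 of 18372 rose at the second. The shares without replicate 3 are not given. For both genes, stages next to each other in the order of the OP50 means overlapped in their mean ± SD. Larval and adult changes on the isolates were compared in the model of 24 groups. The mean isolate effect in larvae minus that in adults was -0.38 ± 0.61 for str-7 (adjusted p = 0.855) and -1.20 ± 0.52 for srh-237 (0.287), and neither passed, while 0.795% of all genes were called with a lower value in larvae.

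The OP50 libraries of a stage differed widely, and in a different way for each gene. str-7 was highest in replicate 2 at all 6 stages, with 2.78, 12.1, 7.31, 1.76, 3.41 and 5.55 CPM in the order of stages. cth-1, a cystathionine gamma-lyase of the transsulfuration pathway, and argk-1, an arginine kinase, lie next to str-7 and ranked the OP50 libraries in the same order as str-7 at 6 of 6 stages. Of the other neighbours, F22B8.7 did so at 5 of 6 stages and WBGene00009047 at 3 of 6. At Ad3, for example, cth-1 had 19, 64.9 and 6.68 CPM and argk-1 had 6.22, 68.4 and 0.961 CPM in replicates 1, 2 and 3. srh-237 never shared its highest OP50 library with str-7 and shared the lowest at 3 of 6 stages. The order of srh-237 was shared by its neighbour T05E12.6 at 3 of 6 stages and by acdh-1 at 2 of 6, and each had the same lowest library at 5 of 6. How many of all genes share the order of either member was not counted. These orders are thus a description and are not shown to be particular to the genes named.

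OP50 replicate 3, low in srh-237 at L4, Ad1 and Ad3, was low in several other genes of the same libraries. T05E12.6, the gene that lies upstream of srh-237 on the opposite strand, had 68.1, 194 and 24.7 CPM in replicates 1, 2 and 3 at L4, 104, 112 and 0.738 CPM at Ad1 and 48.7, 40.0 and 1.56 CPM at Ad3. acdh-1, an acyl-CoA dehydrogenase of the propionate shunt that is used when vitamin B12 is scarce, had 1669, 1964 and 266 CPM at L4, 1182, 1278 and 11.4 CPM at Ad1 and 628, 549 and 13.4 CPM at Ad3. For str-7 the same replicate was the middle value at L4 (5.20 CPM) and the lowest at Ad1 (0.422 CPM) and Ad3 (0.275 CPM), and cth-1, argk-1 and clec-258 were also lowest in it at Ad1 and Ad3. Summed levels of the 12 markers of amphid chemosensory neurons in these OP50 libraries were 55.9, 71.5 and 62.0 CPM at L4, 81.2, 77.7 and 94.4 CPM at Ad1 and 81.2, 79.8 and 85.2 CPM at Ad3. Other marker sums also differed among the replicates, and replicate 3 was not always the one apart. In replicates 1, 2 and 3, intestine markers summed to 6013, 15955 and 34389 CPM at L4, 19820, 37851 and 21254 CPM at Ad1 and 22112, 19367 and 7884 CPM at Ad3. Epidermis markers summed to 558, 979 and 282 CPM and germline and sperm markers to 4693, 5772 and 2685 CPM at Ad1, and muscle markers to 1239, 1620 and 837 CPM at Ad3. Neuron markers summed to 436, 418 and 618 CPM at Ad1, and muscle markers to 2652, 9616 and 9622 CPM at L4. Replicate 3 was thus low in some tissue sums and high or in the middle in others. The part of these sums in the result was not tested. The profiles of replicate 3 at L4, Ad1 and Ad3 were closest to their own stage. The part of this replicate in the result of srh-237 is given by the values with and without it above.

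**Figure D3:**
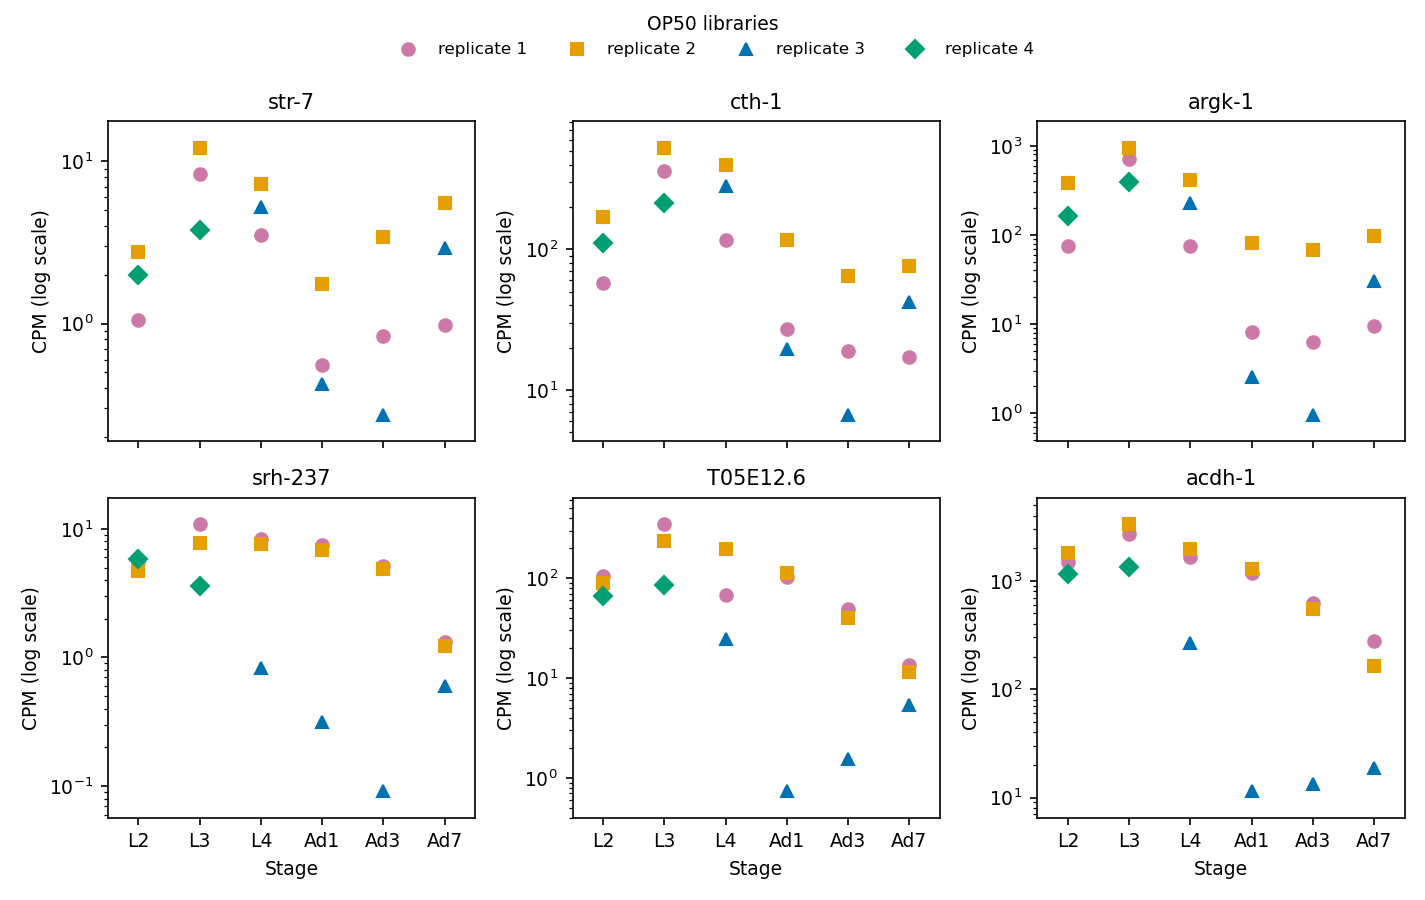
Levels in CPM (log scale) of str-7 with its neighbours cth-1 and argk-1 (upper row) and of srh-237 with its neighbour T05E12.6 and with acdh-1 (lower row) in the OP50 libraries of each stage, 1 point per library, with colour and shape marking the replicate number. Replicate 2 is the highest at every stage in the upper row, and replicate 3 is the lowest from L4 to Ad7 in the lower row, reaching 0.0915 CPM for srh-237, 1.56 CPM for T05E12.6 and 13.4 CPM for acdh-1 at Ad3.

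The genes whose pattern was most like that of each member were found by Pearson's r of the mean log2 CPM over the 24 groups of stage and bacterium, among 18371 other genes. The 24 points share libraries and fall into 6 groups on OP50 and 18 on the isolates and Mix, so r also carries the difference between diets and is given as a description. For str-7 these were clec-258, a C-type lectin (r = 0.965), argk-1 (0.962), the pseudogene WBGene00009047 (0.930), F22B8.7 (0.929) and cth-1 (0.917). All but clec-258 lie within 10 kb of str-7. With the mean of each stage subtracted, the 5 were cth-1 (0.991), clec-258 (0.989), H20E11.2 (0.978), WBGene00009047 (0.973) and argk-1 (0.971). For srh-237 the first 5 were acdh-1 (0.960), argk-1 (0.945), Y38H6C.21 (0.938), ech-6, an enoyl-CoA hydratase (0.936), and hphd-1, a hydroxyacid-oxoacid transhydrogenase of the propionate shunt (0.932). After the stage means were subtracted they were acdh-1 (0.985), T05E12.6 (0.981), fbxa-72, which encodes an F-box protein (0.973), pmp-5, an ABC transporter of the peroxisomal membrane (0.972), and F21C10.9 (0.971). str-7 and srh-237 had r = 0.893 with each other, which made srh-237 the 6th gene for str-7 and str-7 the 9th for srh-237. After the stage means were subtracted r was 0.902, and these ranks were 19 and 49. Without that subtraction, the ranks were 10 and 12 with all 82 libraries, and 11 and 14 with a prior count of 0.5 in the log2 CPM.

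These like genes ranged widely in level and in the size of their change. clec-258 had a median of 0.0828 CPM on MYb71 and 0.0583 CPM on MYb65, against 9.97 CPM on OP50, and fell by 6.84 ± 0.40 on MYb71 and fell by 7.48 ± 0.46 on MYb65 across stages. acdh-1 had a median of 0.461 CPM on MYb71 and 2.26 CPM on MYb65, against 1170 CPM on OP50, and fell by 9.72 ± 0.66 and fell by 9.13 ± 0.69. ech-6 kept a high level on the isolates, with medians of 139 CPM on MYb71 and 148 CPM on MYb65, against 468 CPM on OP50, and fell by 1.79 ± 0.17 and fell by 1.66 ± 0.18. All of these changes were called, and each compares with the same OP50 libraries as the changes of str-7 and srh-237. The genes were picked by an r that carries the difference between diets, so a fall on the isolates was largely set by the choice.

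All annotated genes within 10 kb of either member were examined next, 14 in number, of which 8 passed the filter across stages. Around str-7 these were cth-1, argk-1, F22B8.7 and WBGene00009047. cth-1 starts 1138 bases from str-7 on the opposite strand and reads away from it, F22B8.7 reads towards it and ends 503 bases away, and argk-1 lies 4352 bases and WBGene00009047 9606 bases from it. All 4 fell on both isolates. argk-1 fell by 8.37 ± 0.45 on MYb71 and fell by 8.45 ± 0.50 on MYb65 across stages (adjusted p = 1.57e-25 and 3.92e-23), with medians of 0.333 CPM on MYb71 and 0.290 CPM on MYb65, against 78.4 CPM on OP50. cth-1 fell by 3.61 ± 0.19 and fell by 3.57 ± 0.21, with medians of 9.92 CPM on MYb71 and 8.55 CPM on MYb65, against 93.4 CPM on OP50. WBGene00009047 fell by 4.44 ± 0.35 and fell by 4.03 ± 0.36, and F22B8.7 fell by 1.45 ± 0.13 and fell by 1.43 ± 0.14.

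Around srh-237 the tested neighbours were T05E12.6, ZK218.1, ZK218.4 and ZK218.5. T05E12.6, whose near end lies 936 bases from the start of srh-237, fell by 3.74 ± 0.33 on MYb71 and fell by 3.26 ± 0.34 on MYb65 (adjusted p = 8.38e-15 and 1.85e-11), with medians of 4.02 CPM on MYb71 and 5.87 CPM on MYb65, against 67.0 CPM on OP50. ZK218.1, 847 bases downstream, fell by 3.67 ± 0.48 on MYb71 and fell by 1.63 ± 0.42 on MYb65, at a low level throughout (medians of 0.0452 CPM on MYb71 and 0.0515 CPM on MYb65, against 0.409 CPM on OP50). ZK218.4, 7139 bases from srh-237, rose by 1.09 ± 0.31 on MYb71 (adjusted p = 0.0225) and had a change of 0.85 ± 0.33 on MYb65 that did not pass (0.161), and ZK218.5 had -0.55 ± 0.55 and 1.34 ± 0.50 with neither passing. In all, 6 of the 8 tested neighbours fell on each isolate, where 2.93% of all genes did on MYb71 and 1.71% on MYb65. Their median log2 fold change was -3.64 on MYb71 and -2.44 on MYb65, against -0.03 and -0.00486 over all genes tested. The OP50 libraries compared here also served in choosing the members, so the count is a description. The reads of argk-1 and of WBGene00009047 lay mainly in those libraries. WBGene00009047 had medians of 0.149 CPM on MYb71 and 0.155 CPM on MYb65, against 2.92 CPM on OP50.

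**Figure D4:**
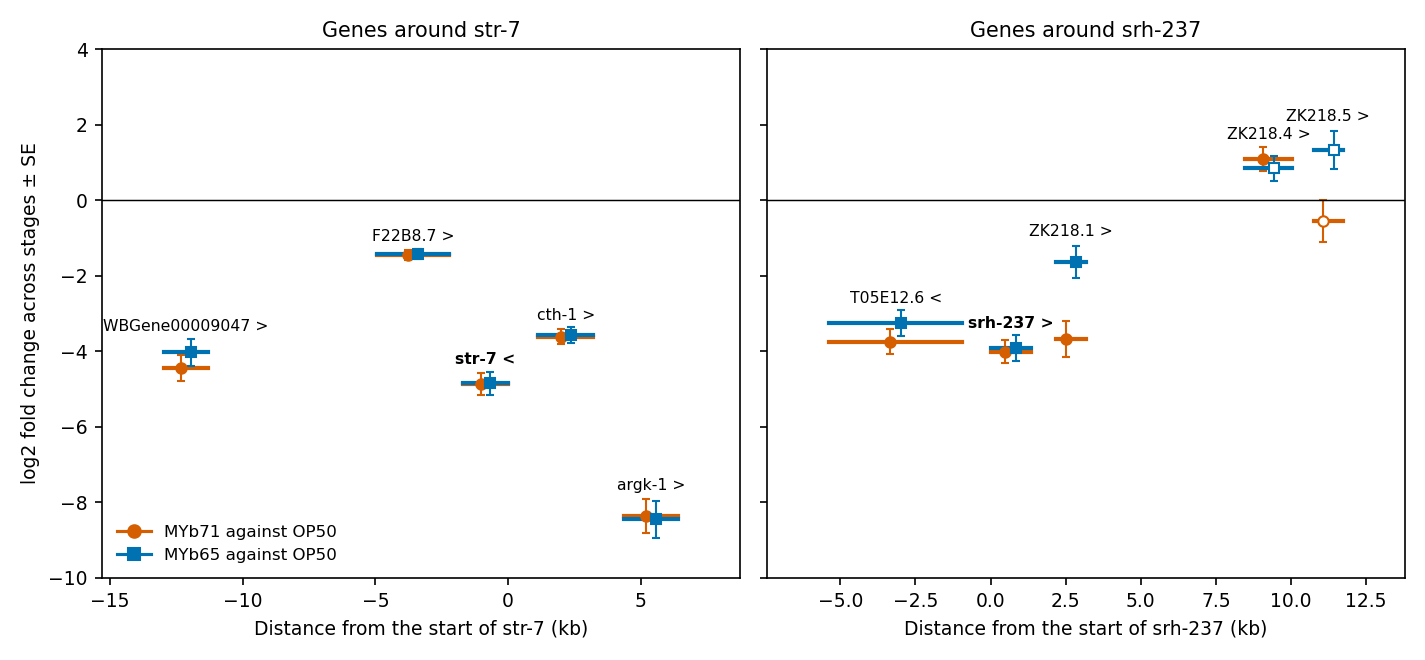
Log2 fold change across stages ± SE of the genes tested within 10 kb of str-7 (left) and srh-237 (right), for MYb71 (orange circles) and MYb65 (blue squares) against OP50. The horizontal axis is the distance in kb from the start of the member, lines mark the extent of each gene, arrows its strand, and white symbols a change that did not pass. All 4 neighbours of str-7 lie below 0, from -1.43 for F22B8.7 to -8.45 for argk-1, while around srh-237 T05E12.6 and ZK218.1 lie below 0 and ZK218.4 above it.

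The other chemoreceptor genes were examined as a list. Of 1310 genes named as chemoreceptors of the sr and str families, 34 had no read in any of the 82 libraries and 389 passed the filter. By level per kb of exon on OP50, srh-237 ranked 6 (4.46 CPM per kb) and str-7 ranked 7 (2.88 CPM per kb) among them, against a median of 0.0370 CPM per kb. srh-237 was the highest of the 220 srh genes and str-7 the second of the 193 str genes after str-176 (9.38 CPM per kb). The 2 members were chosen for a fall from these same OP50 libraries, so their high ranks on OP50 are not independent of the choice. Without the 2 members, 3 of 387 tested chemoreceptor genes fell and 6 rose on MYb71, and 2 fell and 5 rose on MYb65. Of all genes tested, 2.93% fell and 1.76% rose on MYb71, and 1.71% fell and 1.8% rose on MYb65. Their median log2 fold change was 0.06 on each isolate, against -0.03 on MYb71 and -0.00486 on MYb65 over all genes. In the str family 2 of 43 tested genes fell on each isolate, str-7 and str-41, and none rose. In the srh family 1 of 55 tested genes fell on each isolate, which was srh-237, and 1 rose on MYb71. The falls of str-7 and srh-237 in these family counts are likewise not independent of the choice.

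Other chemoreceptors that were called on both isolates changed less than str-7 and srh-237. The 2 members were chosen for their fall on Mix against the same OP50 libraries, so this order was largely set by the choice. str-41 fell by 2.51 ± 0.48 on MYb71 and fell by 1.99 ± 0.48 on MYb65. srr-4, the chemoreceptor gene with the highest level on OP50 (32.4 CPM per kb), fell by 0.94 ± 0.17 and fell by 0.92 ± 0.18. In the other direction srw-88 rose by 1.72 ± 0.50 and 2.15 ± 0.50, sri-70 by 1.56 ± 0.32 and 1.37 ± 0.33, sru-40 by 1.45 ± 0.32 and 1.42 ± 0.33, srr-2 by 1.11 ± 0.24 and 0.86 ± 0.25 and srz-99 by 0.65 ± 0.20 and 1.00 ± 0.20.

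Genes that act downstream of chemoreceptors were examined as a list. Of 31 genes of chemosensory signalling, which hold G protein subunits, guanylyl cyclases, cyclic nucleotide-gated and TRPV channels, kinases and regulators, 1 fell on each isolate and none rose by edgeR (at an unadjusted p under 0.05, 2 fell on MYb71 and 1 on MYb65, and none rose; DESeq2 called 1 lower on each). Over all genes 2.93% fell on MYb71 and 1.71% on MYb65, so a count of 1 in 31 is near the background. The gene that fell was gpa-13, a G protein alpha subunit, by 0.71 ± 0.14 on MYb71 and fell by 0.60 ± 0.15 on MYb65. Of the 12 markers of amphid chemosensory neurons, among them the channel subunits tax-2 and tax-4 and the cilium gene osm-6, none was called on either isolate by edgeR or DESeq2, and none had an unadjusted p under 0.05. Their median log2 fold change was -0.02 on MYb71 and 0.08 on MYb65. Of 12 general neuron markers none was called by either tool, with 1 lower and 1 higher on MYb71 and 1 higher on MYb65 at an unadjusted p under 0.05.

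Markers of other tissues were examined in the same way. Of 12 intestine markers 1 fell and 2 rose on each isolate, beside shares over all genes of 2.93% lower and 1.76% higher on MYb71, and 1.71% lower and 1.8% higher on MYb65. The gene that fell was mtl-2, a metallothionein, by 3.70 ± 0.40 on MYb71 and fell by 3.51 ± 0.42 on MYb65, and those that rose were ges-1, a gut esterase, by 0.37 ± 0.09 and 0.36 ± 0.10, and asp-1, an aspartic protease, by 0.43 ± 0.14 and 0.65 ± 0.14. The call of asp-1 on MYb71 lay at the threshold (adjusted p = 0.0499983, against 0.00129 on MYb65). Of 5 body wall muscle and 5 epidermis markers none was called by edgeR or DESeq2 or had an unadjusted p under 0.05, and of 7 germline and sperm markers 1 rose on MYb65 by edgeR, none by DESeq2 and none on MYb71 by either tool or at an unadjusted p under 0.05. The summed level of the amphid markers ranged at Ad7 from 84 to 87 CPM on MYb71 and from 84 to 89 CPM on MYb65, against 77 to 85 CPM on OP50, and at L3 from 71 to 94 CPM on MYb71 and from 87 to 104 CPM on MYb65, against 88 to 99 CPM on OP50.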

How the data were processed

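RNA-seq counts of 82 libraries of whole N2 worms were analysed, with 46748 genes and total counts of 10513060 to 74552875 per library. The authors trimmed paired-end reads of a library kit that does not mark strand with Trimmomatic, used STAR 2.5.3a for alignment and HTSeq for counting on WormBase WS235, and deposited raw counts that were not normalized. Positions come from Ensembl 115 on WBcel235, which holds 46449 of the gene IDs. Groups follow the sample labels. The genes str-7 and srh-237 and all gene lists were chosen with earlier results of these data known.

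Genes were filtered with filterByExpr (count minimum 10, total 15, share 0.7), normalized by TMM and tested with edgeR 4.0.16 (R 4.3.3) by the robust quasi-likelihood test, within each stage, across stages (bacterium and stage as terms) and, for stage comparisons, among 24 groups. Benjamini-Hochberg adjustment ran over every gene in a fit, and calls needed an adjusted p under 0.05. The SE is the log2 fold change over the root of F. The fits used 80 libraries. Alternatives were all 82 libraries, 3 libraries per group, leaving out the MYb65 libraries with conflicting labels, DESeq2 1.42.0 and its size factors, no filter, the replicate number as a block and leaving out each replicate (88 regroupings). The model of 24 groups for diets within a stage was added after the data were seen. Named genes are the 2 members, the 5 most like genes by each measure, the genes within 10 kb and list genes called on both isolates.

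Replicate numbers were taken to pair libraries where every pair's deviations correlated above 0.1 over 3 or more pairs, which held for MYb71 and OP50 at L2, L3 and Ad1, for MYb65 and OP50 at L4 and Ad7, and for MYb71 and MYb65 at L4 and Ad3. Within groups no pair of libraries was a repeat. The code was tested on simulated counts with 200 changed genes. Intervals and floors cover counting error only. No sequence is shown.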

Additional observations from a re-analysis of the deposited data

Results flagged for a closer look

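The srh-237 level of MYb65 Ad7 replicate 2, 0.233 CPM, lay far from the other 3 libraries of its group, which had 0.340, 0.352 and 0.347 CPM. These values rest on 5 reads in replicate 2 and on 6, 7 and 5 reads in replicates 1, 3 and 4, so the gap lies within counting error. It was the only such library of either gene in 22 groups of 4, and chance gives about 1 in 20.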

How the results depend on the processing

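Of the values recomputed under each alternative, 1147 kept their direction and their side of the threshold or, for Mix, moved within the spread of replicates, 40 lost and 14 gained a call, 2 moved and 19 changed sign. None of the 19 was called with either sign. With all 82 libraries srh-237 at L3 against L2 on OP50 was -0.11. With 3 libraries per group the MYb71 against MYb65 change of str-7 was 0.12 across stages, 0.057 at L2 and 0.40 at Ad7, and that of srh-237 at Ad3 was -0.047. All calls across stages held under every alternative. With all 82 libraries, str-7 on MYb65 at L2 (-3.71, adjusted p = 0.0778), srh-237 on MYb65 at L3 (-3.63) and str-7 at Ad1 against L4 on the isolates (-1.43) were not called. The last was also lost with 3 libraries per group (-1.53), DESeq2 (-1.57) and no filter (-1.47). Without the MYb65 libraries with conflicting labels, str-7 on MYb65 at L4 was -4.43 and not called. DESeq2 called srh-237 at L4 on MYb71 (-4.67) and MYb65 (-4.0), at Ad3 on MYb71 (-3.0) and MYb65 (-3.40), and at Ad3 against Ad1 on the isolates (1.30). The model of 24 groups also called the changes at L4 (-4.58 and -3.95) and Ad3 (-3.01 and -3.40) but neither at Ad7 (-1.62 and -1.73). At Ad7 the srh-237 call on MYb71 was lost with 3 libraries per group (-1.56), DESeq2 (-1.65), no filter (-1.63) and the replicate block (-1.60), and that on MYb65 with 3 libraries per group (-1.80) and the block (-1.70). The block changed no other call. With each replicate left out in turn, the values whose call, sign or size changed ranged as follows. For str-7 they were 1.73 to 2.44 at L3 against L2 on OP50, -1.70 to -1.18 at Ad1 against L4 on the isolates, and on MYb65 -4.57 to -3.24 at L2 and -5.03 to -4.38 at L4. For srh-237 on the isolates they were -1.31 to -0.47 at Ad1 against L4 and 0.82 to 1.63 at Ad3 against Ad1. For srh-237 on MYb71 they were -5.16 to -4.23 at L4, -3.55 to -2.58 at Ad3 and -1.88 to -1.42 at Ad7, and on MYb65 -6.04 to -4.71 at L2, -3.93 to -2.96 at Ad3 and -1.98 to -1.52 at Ad7. For MYb71 against MYb65 they were -0.25 to 0.29 across stages, -0.55 to 0.76 at L2 and -0.63 to 0.34 at Ad7 for str-7, and -0.37 to 0.088 at L3 and -0.032 to 0.18 at Ad7 for srh-237. Among other uncalled values, str-7 had -0.82 to 0.066 for larvae minus adults and, on the isolates, -0.39 to 0.063 at L3 against L2 and -0.26 to 0.64 at L4 against L3, while srh-237 had -0.72 to 0.059 at L4 against L3 on OP50 and -0.43 to 0.048 at Ad7 against Ad3 on the isolates. For srh-237 on Mix at L4 they were -5.70 to -3.45 against OP50 and -1.37 to 0.88 against the mean isolate, the lowest of each without Mix replicate 2. The causes were not tested.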
